A study of Mus musculus with 48 samples.

Results

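Maternal separation (MS) was compared with rearing without this stress in the amygdala of wildtype mice, using the 8 *Tph2*+/+ MS and the 8 *Tph2*+/+ control (C) samples of a series of 48. Members were genes with a mean of at least 10 counts over these 16 mice, after *Lars2*, *Gm42418* and the 5 entries for read pairs not placed on a gene had been dropped. This left 5528 of the 48440 genes in the count table. For the genes described, a gene lying opposite to them is named where exons of both strands overlap.

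In MS, pups are taken from the dam for part of each day during early life, a procedure used in rodents as a model of early adversity. The amygdala processes threat and social signals, and it receives dense serotonergic (5-HT) input from the raphe nuclei. *Tph2* encodes tryptophan hydroxylase 2, an enzyme that catalyses the step that limits the making of 5-HT in neurons of the brain, so that *Tph2*+/+ mice show MS with 5-HT synthesis left intact. All mice were labelled as C57BL/6 males of 4 months, with C57BL/6N as the substrain in the methods of the study, and were born to *Tph2*+/- parents. MS pups spent 3 h per day away from their dams from postnatal day 2 to postnatal day 15, and C mice were labelled as not stressed. According to the methods of the study, males of both conditions went through anxiety and aggression tests before the tissue was taken, which all groups therefore share, as they share single housing from weaning. The tissue of both hemispheres was pooled per mouse. The litter of each mouse is not given in the labels, so that p-values measure the spread between mice and not between litters.

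Counts on genes ranged from 624555 to 6296568 per library in C and from 657540 to 1513488 in MS. Replicate 1 of C carried 93.3% and replicate 2 of MS 52.6% of these counts on *Lars2* and *Gm42418*, and without both genes 419364 to 772598 counts per library remained. In these libraries 3 counts correspond to between 3.88 and 7.15 CPM (counts normalized to the library size, for single genes below also by TMM factors), a floor that covers counting error only. The median share of uniquely placed pairs that lay on no gene was 97.5% in C and in MS. Counts were low on genes that brain tissue expresses strongly. Over the 16 libraries *Actb*, which encodes beta-actin, had between 1 and 13 counts, the synaptic gene *Snap25* between 2 and 16, and the kinase gene *Camk2a* between 1 and 9. *Tph2* had 0 counts in all 16 libraries and, as its transcript is made in the raphe nuclei, gave no check of the genotype. By contrast, *mt-Nd6*, encoded on the light strand of the mitochondrial genome opposite to *mt-Nd5*, had a median of 276 and up to 417 counts. Of the 5528 genes, 3539 (64.0%) had an exon opposite to an exon of another gene, and these had a median mean count of 49.2 against 20.4 for the others. Libraries were made with a stranded kit, but the strand setting of the counting is not given in the sources used here. Counts on a gene and RNA of its opposite partner therefore cannot be told apart. *Actb*, *Snap25* and *Camk2a* have no opposite exon in the annotation and were still near 0. For genes without an opposite exon it is thus not known either whether counts measure their own RNA.

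Marker genes of the tissue were equally sparse. Of 12 neuronal markers, 5 reached a mean of 10 counts, as did 3 of 10 astrocyte, 3 of 14 oligodendrocyte, 3 of 11 microglia and 2 of 13 amygdala and temporal cortex markers. Their summed counts lay between 1353 and 3054 per library for neurons in C and between 1814 and 3628 in MS. For the amygdala list they were between 20 and 62 in C and between 43 and 68 in MS, so that the dissected region could be checked only weakly. In none of the 14 marker lists was a marker itself a differentially expressed gene (DEG).

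The MS libraries of replicates 7 and 8 stood apart from the others. The share of alignments that were not unique was 15.1% in replicate 7 and 16.1% in replicate 8 of MS, against 10.8% to 13.6% in C. In addition, counts of both libraries leaned toward GC-rich genes. The slope of log2 CPM on the GC content of the exons, centred on the mean of each gene, was 0.296 per 10 percentage points in replicate 7 and 0.208 in replicate 8 of MS, and between -0.189 and 0.16 in C. For neither measure did the groups as a whole differ past the threshold (exact permutation test, two-sided, p = 0.273 for the share and p = 0.141 for the slope, both 0.728 after Benjamini-Hochberg adjustment over 8 library measures). For DEGs that rest on these 2 libraries, values without them are given as well. Replicate 1 of C and replicate 2 of MS, described above, and replicate 8 of C, with 87745 counts on the rRNA gene *CT010467.1* against a group median of 2208.5, also stood apart.

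**Figure D1:**
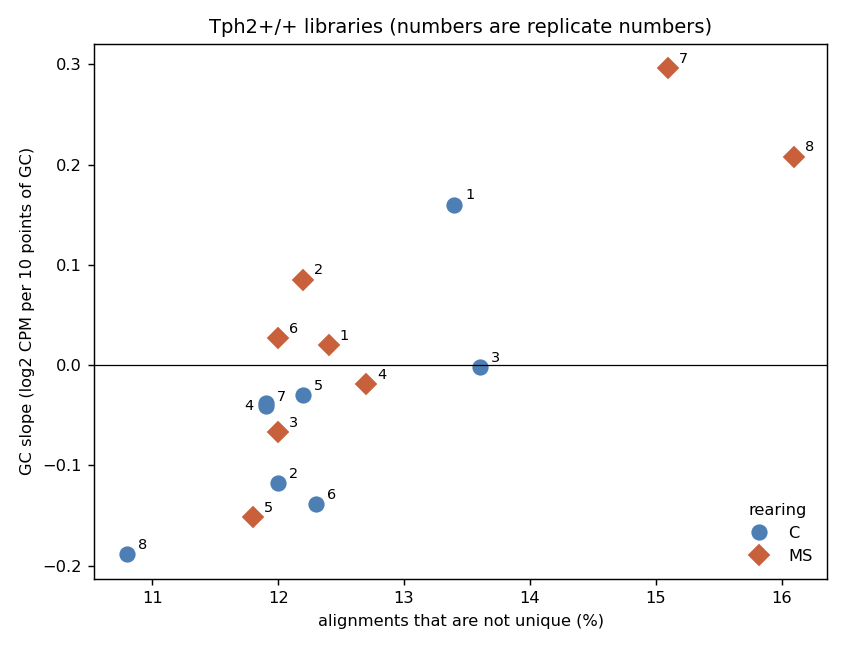
Share of alignments that were not unique (%, x axis) and GC slope (log2 CPM per 10 percentage points of GC, y axis) in the 8 C (circles) and 8 MS (diamonds) libraries of *Tph2*+/+ mice, with replicate numbers beside the points. Replicates 7 and 8 of MS lie at 15.1% and 16.1% with slopes of 0.296 and 0.208, to the right of and above all C libraries.

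After MS, more transcripts were nominally higher than lower in the *Tph2*+/+ amygdala, but none passed the adjustment for multiple tests. The thresholds of the study were used for DEGs, an unadjusted p under 0.01 together with a log2 fold change (lg2FC) of more than 0.2 in either direction. By edgeR's quasi-likelihood test with Benjamini-Hochberg adjustment, 2.86% of the 5528 genes were DEGs, of which 123 (2.23%) were higher and 35 (0.633%) were lower after MS. Of the 123 higher DEGs 20 had a mean under 10 counts in C, and of the 35 lower DEGs 3 had one in MS, so that these passed the minimum of 10 counts over the 16 mice only through the group in which they were high. At an adjusted p below 0.05 there were 0 genes, with a smallest adjusted p of 0.159. DESeq2 and limma voom also gave 0 genes at this threshold, while by edgeR 441 genes (7.98%) had an unadjusted p below 0.05. The lg2FC of higher DEGs lay between 0.23 and 2.22 (median 0.69), and that of lower DEGs in size between 0.22 and 4.13 (median -0.53), against a median of -0.02 over all genes tested. Without replicates 7 and 8 of MS there were 34 DEGs, 15 higher and 19 lower, and there were 80 without replicate 7 alone and 77 without replicate 8 alone. Without both of these libraries 11 of the 123 higher DEGs remained DEGs, and of the 35 lower DEGs, 19 remained. All 123 kept a positive lg2FC without these libraries, with a median of 0.45, and all 35 lower DEGs kept a negative one, with a median of -0.48. The mice that remained in this fit had also chosen these genes, so that a kept sign was nearly fixed in advance. In 96 of the 123 higher DEGs the pair of MS mice with the highest CPM were replicates 7 and 8, and in 0 of the 35 lower DEGs were these the pair with the lowest CPM. Without replicate 8 of C there were 123 DEGs, and without the 4 libraries of the series that were rich in *Gm42418*, of which 2 were *Tph2*+/+, there were 145.

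**Figure D2:**
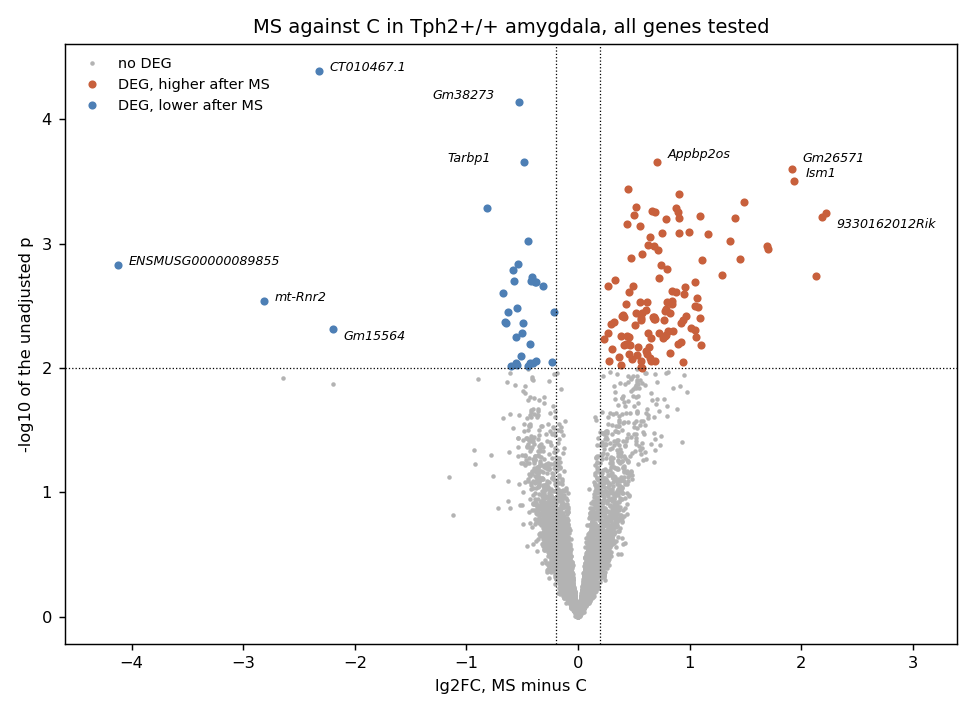
lg2FC of MS against C (x axis) and -log10 of the unadjusted p of edgeR's quasi-likelihood test (y axis) for the 5528 genes tested in *Tph2*+/+ mice. Dotted lines mark the DEG thresholds, orange points are the 123 higher and blue points the 35 lower DEGs, and 4 lower genes with lg2FC of -2.20 or below lie apart on the left.

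The higher DEG with the smallest p was *Appbp2os*, an antisense transcript on chromosome 11 (85234775 to 85238304, plus strand, GRCm38) with 356 exonic bases opposite to *Appbp2*, which encodes a protein that binds the amyloid precursor protein. It lay between 55.9 and 86.6 CPM in C (median 67.5) and between 69.0 and 174 CPM in MS (median 107.2), which gave a lg2FC of 0.71 ± 0.18 (± standard error here and for all lg2FC) and an adjusted p of 0.159. In MS, 5 of 8 mice were above every C mouse, and replicates 7 and 8 were the highest. Without them the lg2FC was 0.47 and *Appbp2os* was no longer a DEG. A similar pattern was found for *Gm26571* on chromosome 12, opposite to *Riox1*, a gene of a ribosomal oxygenase. *Gm26571* had a median of 7.73 CPM in C (4.71 to 18.5) and of 27.1 CPM in MS (10.6 to 81.6), a lg2FC of 1.91 ± 0.49. Here 6 of 8 MS mice were above every C mouse, the groups overlapped, and replicates 7 and 8 reached 80.4 and 81.6 CPM. Without them its lg2FC was 1.19 and it was no DEG. Its mean of 6.25 counts in C was under the minimum of 10, which it passed through MS.

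Both members of one opposite pair were among the 12 higher DEGs with the smallest p. *Ina*, which encodes the neuronal intermediate filament protein alpha-internexin, and *Nt5c2*, which encodes a cytosolic nucleotidase of purine metabolism, start on opposite strands of chromosome 19 and share 456 exonic bases at their starts. *Nt5c2* ranged from 16.2 to 28.5 CPM in C (median 22.9) and from 18.1 to 155 CPM in MS (median 41.9), a lg2FC of 1.49 ± 0.40. *Ina* ranged from 37.6 to 69.3 CPM in C (median 47.9) and from 48.3 to 162 CPM in MS (median 70.2), a lg2FC of 0.88 ± 0.24. For both genes the groups overlapped and replicates 7 and 8 of MS were the highest. Without these, lg2FC were 0.77 for *Nt5c2* and 0.41 for *Ina*, and neither was a DEG.

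Of the 12 higher DEGs with the smallest p, 11 lay opposite to another gene, and in 10 of these the overlap began within 500 bases of the start of the opposite gene. Promoters of 6 opposite genes, those of the first 5 higher DEGs with an opposite gene and of *Nt5c2* as partner of *Ina*, are shown to make the base composition at these starts visible. They are taken from RefSeq (GRCm38.p6), span 250 bases before to 50 bases after the start, run 5' to 3' on the strand of the named gene, and have each CG dinucleotide in capitals. A CG was present in 94.6% of the 32851 promoters of the table, at a median of 7 per promoter. The promoter of *Appbp2* (chr11:85235071-85235370, minus strand) holds 29, that of *Riox1* (chr12:83950358-83950657, plus strand) 10, that of *Herc4* (chr10:63243547-63243846, plus strand) 20, that of *Dis3* (chr14:99099721-99100020, minus strand) 30, that of *Ina* (chr19:47014431-47014730, plus strand) 32 and that of *Nt5c2* (chr19:47015125-47015424, minus strand) 51.
Appbp2: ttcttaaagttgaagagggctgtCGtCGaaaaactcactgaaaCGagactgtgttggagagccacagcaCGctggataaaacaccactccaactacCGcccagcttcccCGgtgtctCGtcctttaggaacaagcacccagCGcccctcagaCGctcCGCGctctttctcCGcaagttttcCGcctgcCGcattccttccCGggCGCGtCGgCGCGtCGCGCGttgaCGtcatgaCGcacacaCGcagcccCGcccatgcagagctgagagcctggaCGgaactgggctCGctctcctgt
Riox1: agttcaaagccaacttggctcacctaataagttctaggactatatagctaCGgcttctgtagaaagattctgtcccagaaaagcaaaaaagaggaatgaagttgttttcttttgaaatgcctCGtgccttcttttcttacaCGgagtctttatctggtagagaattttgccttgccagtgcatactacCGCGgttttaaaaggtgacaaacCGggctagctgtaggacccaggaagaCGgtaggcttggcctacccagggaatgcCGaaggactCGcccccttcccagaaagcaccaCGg
Herc4: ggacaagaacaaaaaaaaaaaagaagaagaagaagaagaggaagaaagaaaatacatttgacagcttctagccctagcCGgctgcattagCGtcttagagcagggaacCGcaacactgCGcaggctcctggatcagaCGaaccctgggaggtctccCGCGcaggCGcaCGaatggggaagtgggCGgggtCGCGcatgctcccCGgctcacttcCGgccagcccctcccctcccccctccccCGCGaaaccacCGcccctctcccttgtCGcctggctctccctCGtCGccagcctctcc
Dis3: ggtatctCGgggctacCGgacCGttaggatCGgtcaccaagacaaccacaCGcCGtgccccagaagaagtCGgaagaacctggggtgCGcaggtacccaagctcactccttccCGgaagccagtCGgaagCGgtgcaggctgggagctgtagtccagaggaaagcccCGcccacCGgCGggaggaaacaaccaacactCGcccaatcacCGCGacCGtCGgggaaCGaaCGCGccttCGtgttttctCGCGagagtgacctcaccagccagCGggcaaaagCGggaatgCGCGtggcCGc
Ina: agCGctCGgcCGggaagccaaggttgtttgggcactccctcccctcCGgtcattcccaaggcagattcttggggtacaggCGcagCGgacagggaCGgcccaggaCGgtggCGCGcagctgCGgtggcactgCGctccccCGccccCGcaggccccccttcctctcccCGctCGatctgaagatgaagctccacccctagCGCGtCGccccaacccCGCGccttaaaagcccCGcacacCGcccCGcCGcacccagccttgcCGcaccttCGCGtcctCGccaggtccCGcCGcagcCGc
Nt5c2: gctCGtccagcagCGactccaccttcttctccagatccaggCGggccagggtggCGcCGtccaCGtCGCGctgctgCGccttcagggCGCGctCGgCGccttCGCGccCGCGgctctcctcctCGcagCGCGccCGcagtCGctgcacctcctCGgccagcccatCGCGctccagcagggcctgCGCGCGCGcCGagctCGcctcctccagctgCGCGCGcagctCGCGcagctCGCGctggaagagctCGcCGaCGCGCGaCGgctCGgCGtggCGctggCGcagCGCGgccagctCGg
The letters CG were also frequent at the starts of genes opposite to transcripts that were not higher. Opposite genes of the tested genes had a median of 22 CG (2519 of 3539 matched), those of the higher DEGs 23.5 (80 of 109 matched) and those of the lower DEGs 34 (7 of 14 matched).

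Other transcripts of this group lay opposite to genes of RNA decay, ubiquitin ligation and signalling. *Pibf1*, a gene of a centrosomal protein opposite to the exosome nuclease gene *Dis3*, had 13.96 CPM in C (median, 10.98 to 25.2) and 28.85 in MS (15.1 to 44.8), a lg2FC of 0.91 ± 0.24. *1700120B22Rik*, opposite to the ubiquitin ligase gene *Herc4*, had 79.2 CPM in C (73.4 to 102.8) and 111.5 in MS (92.0 to 138), a lg2FC of 0.44 ± 0.12. In both, 5 of 8 MS mice were above every C mouse. Without replicates 7 and 8 of MS *1700120B22Rik* remained a DEG, at 0.36, and *Pibf1* did not, at 0.68. The mean of *Pibf1* in C, 9.75 counts, was under the minimum of 10, which it passed through MS. *4930500M09Rik*, opposite to the kinase gene *Uhmk1*, had 149 ± 10.9 CPM in C (SD, n = 8, 125.9 to 159.7) and 234 ± 95.8 in MS (SD, n = 8, 135.9 to 418.9), and 7 of 8 MS mice were above every C mouse. Its lg2FC was 0.66 ± 0.18 with all mice and 0.35, no longer a DEG, without replicates 7 and 8 of MS.

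*Dnaaf2*, which encodes an assembly factor of ciliary dynein arms, lies opposite to *9330151L19Rik* and had 112 CPM in C (97.0 to 126) and 155 in MS (92.1 to 213), a lg2FC of 0.52 ± 0.14. *Neu2*, a sialidase gene opposite to *Ngef*, had 105.6 CPM in C (78.4 to 176.9) and 171.4 in MS (150.9 to 386.9), a lg2FC of 0.89 ± 0.24. *Gnb5*, which encodes a G protein beta subunit of neurons, had 22.2 CPM in C (15.98 to 28.5) and 33.1 in MS (16.6 to 58.7), a lg2FC of 0.69 ± 0.19. For *Gnb5*, opposite to *Gm19531*, the highest MS mouse was replicate 2 and not 7 or 8, and the gene remained a DEG without the latter, at 0.60. By the exact permutation test the p of *Gnb5* was 0.0228, unadjusted, which is above the limit of 0.01 used for DEGs. The same test also gave a p above this limit for *Dnaaf2* (0.0137), *Nt5c2* (0.0113) and *9330162012Rik* (0.0347). Without replicates 7 and 8 of MS *Dnaaf2* and *Neu2* were no DEGs, at lg2FC of 0.35 and 0.60. *9330162012Rik*, opposite to *Aldh5a1*, whose product takes part in the breakdown of GABA, had the largest lg2FC of all higher DEGs (2.22 ± 0.60), with 11 CPM in C (3.14 to 21.2) and 30.7 in MS (6.04 to 137). It was at 120 and 137 CPM in replicates 8 and 7 of MS, and its lg2FC without them was 1.16, no longer that of a DEG. Its mean of 6.88 counts in C was under the minimum of 10, which it passed through MS.

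A higher DEG without an opposite exon was *Ism1*, the gene of the secreted protein isthmin 1 on chromosome 2 (139678178 to 139758581, plus strand). *Ism1* had 8.79 CPM in C (3.20 to 13.5) and 23.5 CPM in MS (12.1 to 77.7), a lg2FC of 1.94 ± 0.50. In MS, 7 of 8 mice were above every C mouse, and replicates 7 and 8 lay at 77.7 and 68.4 CPM. Its mean of 5.62 counts in C was under the minimum of 10, which it passed through MS. The lg2FC was 1.23 without replicates 7 and 8, and it was then no DEG.

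**Figure D3:**
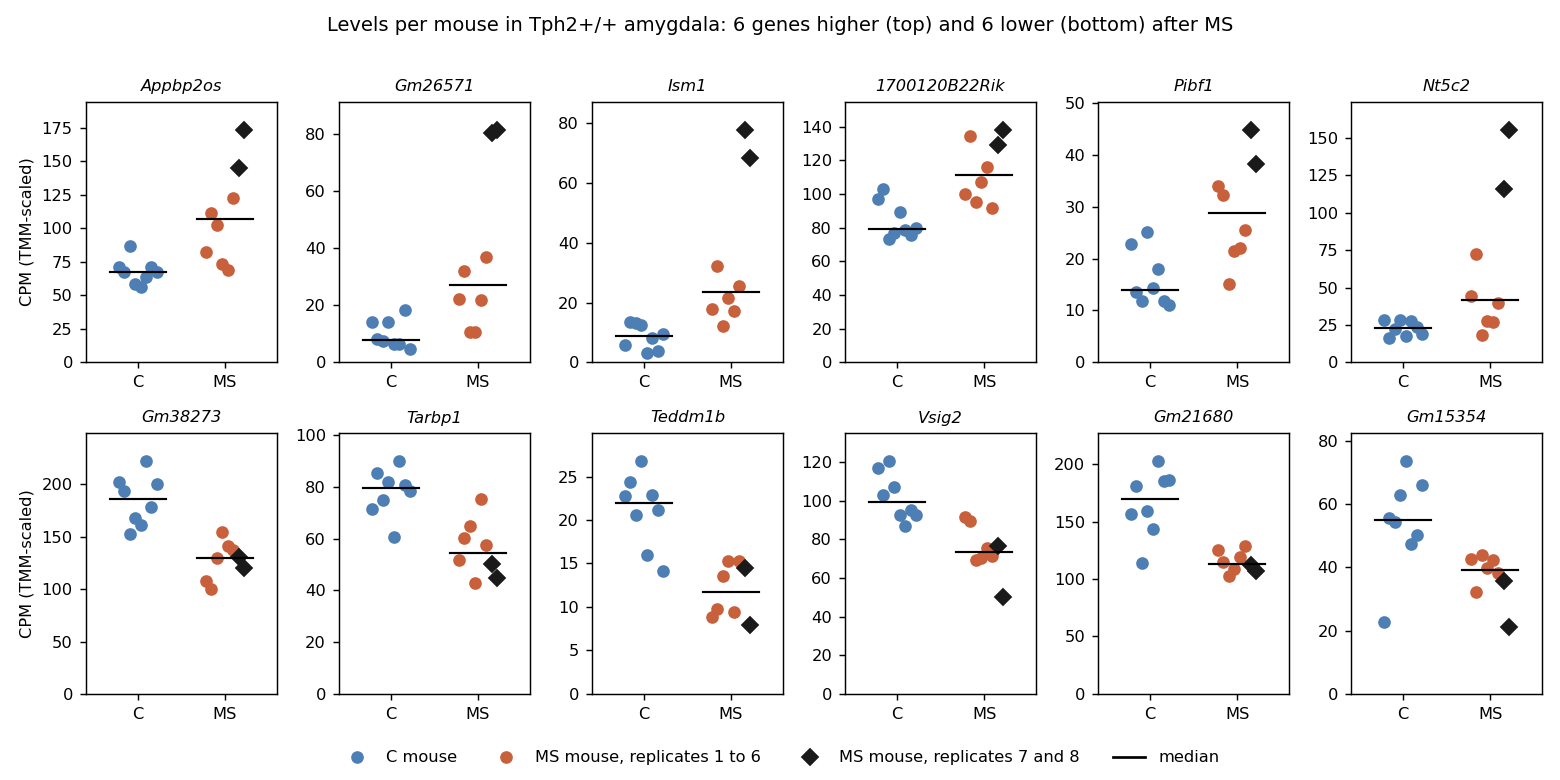
CPM after TMM scaling (y axes, from 0) in the 8 C and 8 MS mice for the 6 higher DEGs with the smallest p (top) and 6 lower DEGs (bottom), with a line at the median and black diamonds for replicates 7 and 8 of MS. In *Nt5c2* these lie at 116 and 155 CPM above all other mice, while in *Gm38273* they lie at 130 and 120 CPM among the other MS mice. *CT010467.1* and *ENSMUSG00000089855* are left out of the bottom row because 1 C mouse each reached 137700 and 9454 CPM.

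Of the 35 lower DEGs, 33 were in the annotation, and 19 of these had no opposite exon. Next to *CT010467.1*, the smallest p of a lower DEG belonged to *Gm38273*, a transcript of the annotation class TEC on chromosome 2 (14735546 to 14737927, minus strand) without an opposite exon. It had between 152.6 and 222.2 CPM in C (median 186) and between 101 and 154 CPM in MS (median 130), a lg2FC of -0.53 ± 0.12 (adjusted p = 0.159 by edgeR's quasi-likelihood test). Of the 8 MS mice, 7 were below every C mouse, and the lg2FC was -0.52 without replicates 7 and 8. The exact permutation test of log2(CPM + 1) gave p = 0.000311 for this gene, unadjusted, with 0.000155 as the smallest p that 8 against 8 mice can give.

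*Tarbp1*, which encodes an RNA methyltransferase and lies opposite to the cytochrome c oxidase assembly gene *Coa6*, had 79.6 CPM in C (60.7 to 89.9) and 54.6 in MS (42.7 to 75.3), a lg2FC of -0.49 ± 0.12. *Vsig2*, a gene of an immunoglobulin domain protein, had 99.1 CPM in C (86.6 to 120) and 73.4 in MS (50.01 to 91.5), a lg2FC of -0.45 ± 0.13. In *Tarbp1* and in *Vsig2*, 6 of 8 MS mice were below every C mouse. *Myo5c*, an unconventional myosin gene, had 85.3 CPM in C (74.8 to 102.8) and 64.7 in MS (48.6 to 90.7), and in MS replicate 6 alone overlapped with C. The coding gene *Gm21680* had 166 ± 28.4 CPM in C (SD, n = 8, 114.4 to 202.6) and 115 ± 9.24 in MS (SD, n = 8, lowest 102.6), and 1 C mouse, replicate 3, lay within the range of MS.

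Further lower DEGs were a mixture of small coding genes, pseudogenes and antisense transcripts. *Teddm1b*, with 22.0 CPM in C (14.1 to 26.8) and 11.7 in MS (7.90 to 15.3), had a lg2FC of -0.82 ± 0.22, but its mean in MS was 8.38 counts. *1700030K09Rik*, opposite to *Cherp*, a gene of an endoplasmic reticulum protein of calcium homeostasis, had 64.1 CPM in C (50.7 to 89.5) and 47.1 in MS (35.4 to 60.5). In the absence of replicate 3 of C its lg2FC was -0.33 instead of -0.42 and no longer a DEG. The pseudogene *Gm12123* had 83.3 CPM in C (61.2 to 108) and 60.3 in MS (36.1 to 74.8). *Gm15354*, opposite to the ubiquitin ligase gene *March1*, and the snRNA gene *Gm25920*, opposite to *Dnajb14*, had lg2FC of -0.58 ± 0.18 and -0.38 ± 0.12. *Gm25920* was no longer a DEG without replicate 8 of C (lg2FC -0.30) or after correction for GC content (lg2FC -0.29). For *Gm15354*, 1 MS mouse was below every C mouse, because replicate 1 of C had 22.8 CPM, and without replicates 7 and 8 of MS it was no DEG (lg2FC -0.47).

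A group of 4 lower DEGs, all related to ribosomal or mitochondrial RNA or without annotation, rested on single C libraries. *CT010467.1*, annotated as rRNA opposite to *Gm42418*, had 137700 CPM in replicate 8 of C against a group median of 3054, and between 3007 and 6453 CPM in MS. *mt-Rnr2*, the large mitochondrial rRNA, had 51340 CPM in replicate 1 of C against a median of 971.6. *Gm15564* and the gene ENSMUSG00000089855, which the annotation used here does not hold, had 19160 and 9454 CPM in the same library against medians of 332 and 15.5. Their lg2FC were -2.32, -2.82, -2.20 and -4.13. By the exact permutation test p was 0.649, 0.38, 0.962 and 0.877, so that the differences were within the spread between mice. Without replicate 8 of C the lg2FC of *CT010467.1* was -0.04. Without replicate 1 of C, lg2FC were 0.04 for *mt-Rnr2*, 0.67 for *Gm15564* and 1.66 for ENSMUSG00000089855. *Gm15564* was also no DEG without replicate 6 of MS (lg2FC -2.098) and without replicates 7 and 8 of MS (lg2FC -2.16). The median over the 15 mitochondrial genes tested, *mt-Rnr2* among them, was -0.22, and 1 of them was a lower DEG, against 0.633% of all genes tested.

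In 4 genes (0.0724% of those tested) the values of MS and C did not overlap, and these were chosen by that property and so are a description. *Mtss1l*, which encodes a membrane-bending protein and has no opposite exon, had 35.2 CPM in C (28.2 to 40.9) and 52.3 in MS (42.8 to 61.2), a lg2FC of 0.55 ± 0.15. Replicates 7 and 8 of MS were not its highest values, and the lg2FC without them was 0.60. After correction for GC content it was 0.41, and *Mtss1l* was no longer a DEG. *Gm45667*, opposite to the caveolar gene *Cavin3*, had 21.6 CPM in C (14.7 to 26.5) and 34.8 in MS (27.5 to 61.9), with replicates 7 and 8 highest. Its lg2FC was 0.90 ± 0.25 with all mice and 0.64, no longer a DEG, without these. With all mice *Mtss1l* and *Gm45667* were DEGs, with adjusted p of 0.165 and 0.159 by edgeR's quasi-likelihood test. Lower in every MS mouse were *Bag4*, a co-chaperone gene opposite to *Gm17484*, with 57.5 CPM in C (55.1 to 78.4) and 47.4 in MS (33.2 to 54.9), and *S1pr3*, a sphingosine-1-phosphate receptor gene opposite to *Gm32834*, with 31.9 (26.7 to 42.8) and 25.3 (20.96 to 26.55). *Bag4* was a DEG (lg2FC -0.38 ± 0.14, and -0.35 and no DEG without replicates 7 and 8 of MS) and *S1pr3* was not (lg2FC -0.42 ± 0.18, adjusted p = 0.504).

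Place and base composition of the DEGs are given as a description. Among higher DEGs, 109 of 123 (88.6%) lay opposite to another gene, as did 14 of 35 lower DEGs and 64.0% of all genes tested. The overlap began within 500 bases of the start of the opposite gene in 76.1% of the higher and 28.6% of the lower DEGs that had one, against 31.9% of all genes with an overlap. The bases of the overlap had a median GC content of 69.4% in higher DEGs, 49.3% in lower DEGs and 52.8% in all. Over all exons of the counted gene the medians were 55.3%, 47.7% and 48.5%. Of the 11 higher DEGs that remained without replicates 7 and 8 of MS, 8 lay opposite to another gene, and in 4 of these the overlap began within 500 bases of its start. Members of a pair share bases, and genes are not independent, so no test was made.

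Along the GC content of the exons the MS difference changed its direction. Of 416 genes with less than 40% GC, 1 was a higher and 5 were lower DEGs, and the median lg2FC was -0.11. Of 211 genes with 60% GC or more, 35 (16.6%) were higher DEGs and 1 was lower, with a median lg2FC of 0.17. Of these 35, 0 remained DEGs without replicates 7 and 8 of MS, and the medians of the lowest and highest bin were -0.03 and 0.08. With all libraries, in the same bins the medians were -0.002 and -0.14 in *Tph2*+/- mice and -0.10 and 0.11 in *Tph2*-/- mice. GC slopes of the libraries had group medians of -0.039 in C and 0.023 in MS of *Tph2*+/+, 0.039 and -0.032 of *Tph2*+/-, and -0.097 and -0.037 of *Tph2*-/- mice. These slopes come from the same counts as the lg2FC of the bins and are no independent measure. When each library was corrected for GC content, there were 141 DEGs, 83 higher and 58 lower, of which 78 were among the 123 higher and 30 among the 35 lower DEGs.

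**Figure D4:**
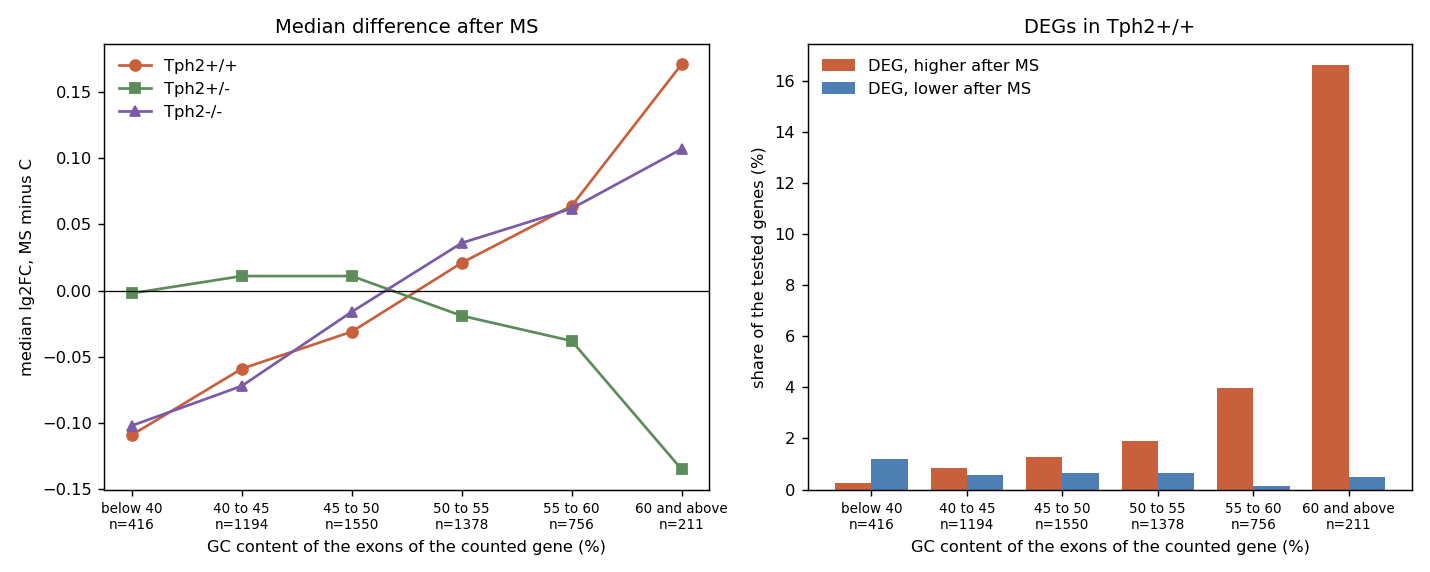
Genes tested in 6 bins of the GC content of their exons (x axes, %, with the number of genes). Left, median lg2FC of MS against C in the 3 genotypes, from -0.11 in the lowest to 0.17 in the highest bin for *Tph2*+/+ and to -0.14 for *Tph2*+/- mice. Right, share of genes (%) that were higher or lower DEGs in *Tph2*+/+ mice, with 16.6% higher DEGs at 60% GC and above, of which 0 remained without replicates 7 and 8 of MS.

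By annotation class, higher DEGs were 57 of 2996 protein-coding genes (1.90%), 35 of 1171 antisense transcripts (2.99%), 2 of 266 lincRNAs (0.752%) and 9 of 67 genes annotated as miRNA (13.4%), against 2.23% of all genes tested. Of the last, 5 lay opposite to an H2A histone gene, and 0 of the 9 remained DEGs without replicates 7 and 8 of MS. H2A histones package DNA in nucleosomes, and their genes are short, without introns and rich in GC. Of 10 tested genes opposite to an H2A histone gene, a set chosen after its values were seen, 6 were higher and 0 were lower DEGs, against 2.23% and 0.633% of all genes tested, with lg2FC from 0.15 to 1.10 (median 0.69). Their exons had a median GC content of 66.7%, and of all genes with 60% GC or more 16.6% were higher DEGs. Of the 6, 0 remained DEGs without replicates 7 and 8 of MS. The median lg2FC of the 10 genes was 0.35 without these libraries, and with all libraries -0.34 in *Tph2*+/- and 0.25 in *Tph2*-/- mice. Sequences of the histone family are nearly identical, so that reads may be shared between its members.

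Lists of genes were read in both ways, as genes counted themselves and as genes lying opposite to a listed gene. Hormonal stress genes were hardly measured. Of 25 genes of glucocorticoid and stress hormone signalling, 2 were tested, the mineralocorticoid receptor gene *Nr3c2*, opposite to *Gm10649*, with a lg2FC of 0.10 ± 0.23 and the chaperone gene *Hsp90ab1* with 0.05 ± 0.26. Among 20 serotonin genes 3 were tested, the receptor genes *Htr1b*, opposite to *D430036J16Rik* (0.17 ± 0.14), and *Htr2b*, opposite to *Psmd1* (-0.15 ± 0.09), and the vesicular monoamine transporter gene *Slc18a2*, opposite to *Gm29261* (-0.02 ± 0.17). Neither list held a DEG in either reading.

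Genes of inhibitory and excitatory transmission were read from 2 lists. Of 21 GABA genes, 6 were tested with a median lg2FC of -0.06 and 0 DEGs, and of the 5 tested genes opposite to one, 1 was a higher DEG, against 2.23% of all genes tested. This was *Gm14205*, opposite to *Slc32a1*, which encodes the vesicular GABA transporter. It had 159 CPM in C (146 to 203) and 217 in MS (149 to 396), a lg2FC of 0.46 ± 0.17 (adjusted p = 0.314) that was 0.23 without replicates 7 and 8 of MS and 0.10 after correction for GC content. Leaving out replicate 2, 4, 5, 6 or 8 of C or replicate 2, 7 or 8 of MS also took *Gm14205* out of the DEGs, at lg2FC of 0.30 to 0.45. Of 33 glutamate genes, 6 were tested and 10 tested genes lay opposite to one, with 0 DEGs in both readings and medians of -0.11 and 0.01. The list does not hold *Grin3b*, an NMDA receptor subunit gene opposite to *Tmem259*, which was a higher DEG with a lg2FC of 0.94 ± 0.35, and of 0.45 and no DEG without replicates 7 and 8 of MS. Among the genes opposite to a listed one were *Grin1os*, opposite to the NMDA receptor gene *Grin1* (0.003 ± 0.08), and *Gm13872*, opposite to the glutamate transporter gene *Slc1a2* (0.02 ± 0.07).

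Of 24 immediate early and neurotrophin genes, 3 were tested and 3 tested genes lay opposite to one. The 1 DEG, a higher one against 2.23% of all genes tested, was *Gm11175*, opposite over 877 bases to *Jund*, a gene of the AP-1 transcription factor. It had 441 CPM in C (326 to 507) and 630 in MS (314 to 1279), a lg2FC of 0.84 ± 0.26 (adjusted p = 0.22). MS mice covered the lowest and the highest value of all 16, with replicate 3 at 314 CPM and replicates 7 and 8 at 1244 and 1279. *Jund* itself was not a DEG (0.92 ± 0.36, adjusted p = 0.387), nor was *Gm45346*, opposite to the neurotrophin gene *Bdnf* (0.23 ± 0.19). Without replicates 7 and 8 of MS *Gm11175* was no DEG, at a lg2FC of 0.49, nor was it one after correction for GC content, at 0.41. Its lg2FC was 0.71 without replicate 7 and 0.69 without replicate 8 alone, and in both cases it was no DEG.

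For neuropeptide precursor genes, 1 of 25 was tested and 2 tested genes lay opposite to one, with 0 DEGs. *Cck*, which encodes the neuropeptide cholecystokinin, had between 1 and 5 counts in each of the 16 libraries and was below the filter. Of 20 genes of DNA methylation and demethylation, 3 were tested and 5 tested genes lay opposite to one, with 0 DEGs. *Gadd45a*, linked to active demethylation and opposite to *E230016M11Rik*, had a lg2FC of 0.45 ± 0.17 (adjusted p = 0.378), and *Dnmt3aos*, opposite to the methyltransferase gene *Dnmt3a*, one of -0.20 ± 0.22. Imprinted genes, expressed from a single parental allele, had 14 of 46 tested and 21 tested genes opposite to one, with 0 DEGs. Their medians were -0.15 and -0.10. *Nnat*, a neuronal membrane protein gene opposite to *Gm23134*, had a lg2FC of -0.25 ± 0.11 and *Gm20721*, opposite to the G protein gene *Gnas*, one of 0.05 ± 0.07 at a median of 15130 CPM in C and 15340 CPM in MS.

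Of 40 nuclear genes of the respiratory chain, 9 were tested and 14 tested genes lay opposite to one, with medians of 0.12 and -0.01. The 1 DEG, a higher one against 2.23% of all genes tested, was *Gabpa*, the gene of a transcription factor for respiratory chain genes, which lies opposite to the ATP synthase gene *Atp5j*. *Gabpa* had 176 CPM in C (155 to 228) and 216 in MS (163 to 465), a lg2FC of 0.52 ± 0.17 (adjusted p = 0.237) and of 0.16 without replicates 7 and 8 of MS. *Atp5j* itself had a lg2FC of 0.26 ± 0.17 and was not a DEG. Without replicate 7 or replicate 8 of MS alone *Gabpa* was no DEG either, at 0.41 and 0.35.

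Markers of cell types and of brain regions were read in both ways. Of 24 markers tested 0 were DEGs, and of 21 tested genes opposite to a marker 1 was, against 2.86% of all genes tested. This was *Apex2*, a base excision repair gene with 311 bases opposite to the erythroid gene *Alas2*. It had 14.7 CPM in C (6.30 to 20.8) and 20.8 in MS (11.2 to 51.9), a lg2FC of 0.84 ± 0.27. Its mean of 9.0 counts in C was under the minimum of 10, which it passed through MS. Replicate 4 of MS was the highest, and without it the lg2FC was 0.63 and no longer a DEG, as it was at 0.73 without replicate 4 of C and at 0.72 without replicate 7 of MS. Of the 5 blood markers counted themselves, 4 had 0 counts in all 16 libraries and the other, *Alas2*, lay between 408 and 601 CPM in C and between 374 and 535 in MS. *Gigyf2*, opposite to the choroid plexus marker *Kcnj13*, ranged from 14.6 to 454 CPM in C and from 27.6 to 275 in MS (lg2FC -1.16 ± 0.64, adjusted p = 0.683). The ranges of both groups overlapped widely, and 3 of 12 choroid plexus markers had 0 counts throughout.

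In mice of the other genotypes, which share no sample with the *Tph2*+/+ comparison, the lg2FC of the higher DEGs were mostly negative in *Tph2*+/- and mostly positive in *Tph2*-/- mice. Of the 123 genes, 112 (91.1%) were lower after MS in *Tph2*+/- mice, with a median lg2FC of -0.33, against 52.4% of all genes tested. In *Tph2*-/- mice 87.0% of the 123 were higher and 16 were lower, with a median of 0.22, against 48.7% of all. Of the 35 lower DEGs, 16 (45.7%) were lower in *Tph2*+/- and 22 (62.9%) in *Tph2*-/- mice. MS gave 40 DEGs (0.724%) in *Tph2*+/- and 38 (0.687%) in *Tph2*-/- mice, and of the 123 higher DEGs 3 were lower DEGs in the former and 1 was a higher DEG in the latter, against 0.452% and 0.253% of all genes tested. Libraries with more than 15% of alignments that were not unique were also found here. Replicate 8 of MS in *Tph2*+/- mice had 15.7% and a GC slope of 0.464, and in *Tph2*-/- mice replicates 2 and 4 of MS had 15.7% and 15.8% with slopes of 0.329 and 0.313. These 3 libraries were left out after their values were seen. Then 93.5% of the 123 genes were lower in *Tph2*+/- mice (median lg2FC -0.45), against 50% of all genes tested. In *Tph2*-/- mice 76.4% of the 123 were higher (median 0.10), against 51.2% of all. The DEGs then numbered 112 in *Tph2*+/- and 33 in *Tph2*-/- mice, and 32 of the 123 were lower DEGs in the former, against 1.59% of all genes tested. Only MS libraries were left out, and GC slopes of the *Tph2*+/- libraries kept reached 0.188 in C and 0.001 in MS. Whether this lean bears on the values was not tested.

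**Figure D5:**
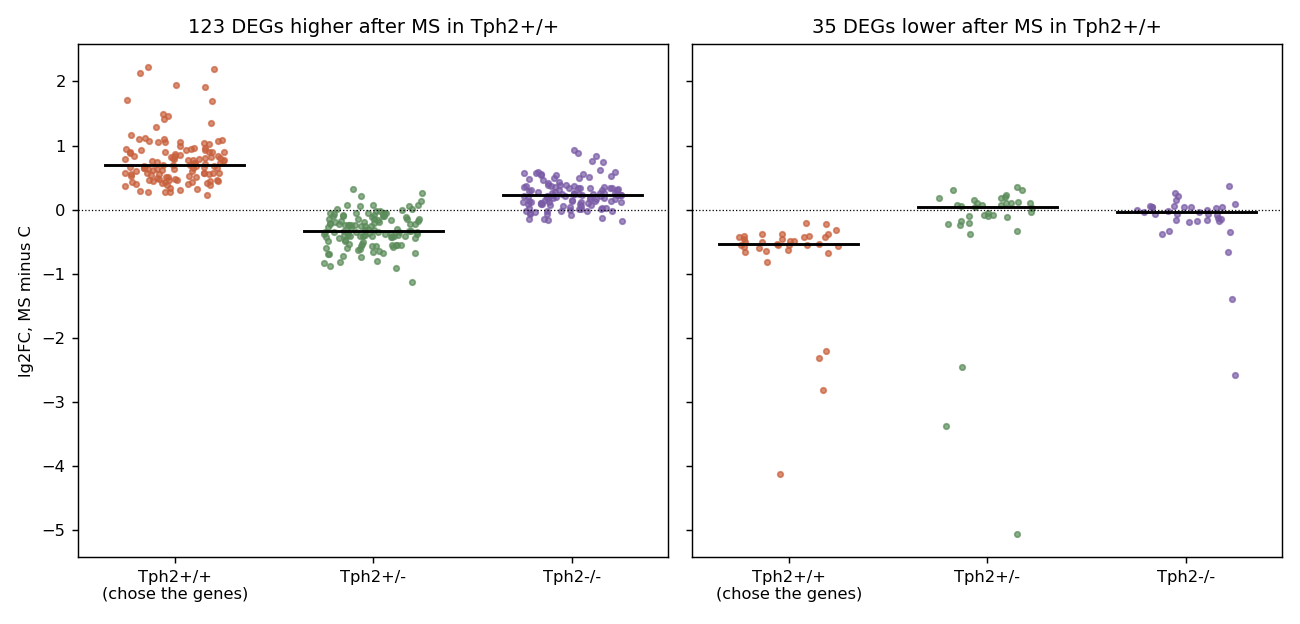
lg2FC of MS against C (y axis) of the 123 higher (left) and 35 lower (right) DEGs of *Tph2*+/+ mice, in *Tph2*+/+ mice, where they were chosen, and in *Tph2*+/- and *Tph2*-/- mice. Points are genes and lines are medians, which for the higher DEGs lie at 0.69, -0.33 and 0.22.

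Whether the MS difference depended on genotype was tested with the interaction contrasts of the study, which share the *Tph2*+/+ mice with the comparison above. For GE1, the MS difference in *Tph2*+/- minus that in *Tph2*+/+, 180 genes (3.26%) were DEGs, 27 with a positive and the others with a negative value. At an adjusted p below 0.05 there were 0 genes by edgeR's quasi-likelihood test and 3 by DESeq2, with 460 (8.32%) at an unadjusted p below 0.05. Without replicate 3 of MS 58 genes passed the adjusted threshold, and without replicate 4 of MS 2 genes. Without replicates 7 and 8 of MS there were 53 DEGs for GE1. For GE2, the same difference for *Tph2*-/- mice, 30 genes (0.543%) were DEGs, 14 positive and 16 negative, with 0 genes after adjustment by edgeR and by DESeq2 and 3.4% of the genes at an unadjusted p below 0.05. The smallest adjusted p for GE1 was 0.0788, reached by *Appbp2os*, whose lg2FC was 0.71 in *Tph2*+/+ and -0.42 ± 0.18 in *Tph2*+/- mice, and by *Dnaaf2*, with 0.52 and -0.38 ± 0.14. The difference between genotypes did not pass the threshold for a named gene by edgeR's quasi-likelihood test.

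*A830073O21Rik* and *Fars2* are taken up by the study for its interaction contrasts and were described here after their values had been seen. *A830073O21Rik*, a transcript on chromosome 7 opposite to *Fam174b*, had 34.9 CPM in C (22.9 to 43.2) and 47.1 in MS (28.7 to 80.3), a lg2FC of 0.62 ± 0.22 (adjusted p = 0.313). *Fars2*, opposite to *Nrn1*, encodes a tRNA synthetase of mitochondria and had 7.89 CPM in C (5.71 to 17.3) and 23.4 in MS (6.28 to 80.3), a lg2FC of 1.71 ± 0.49 (adjusted p = 0.174). In both genes MS replicates 7 and 8 were the highest of 8, and the groups overlapped. Without them the lg2FC was 0.33 for *A830073O21Rik* and 0.97 for *Fars2*, and neither was a DEG. The mean of *Fars2* in C, 5.5 counts, was under the minimum of 10, which it passed through MS. In *Tph2*+/- mice the values were -0.21 ± 0.22 and -0.80 ± 0.47, and in *Tph2*-/- mice 0.16 ± 0.22 and 0.55 ± 0.57.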

How the data were processed

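RNA was extracted from the amygdala of 48 mice, 8 for each combination of *Tph2* genotype and condition, and sequenced as stranded total RNA in read pairs of 125 bp. The authors deposited 1 table of raw read counts per gene and sample, and the deposited counts are whole numbers without normalization. The submitters' processing notes name STAR, HTSeq, DESeq2 and GRCm38.p5, while the strand setting is not given in the sources used here. The 5 special entries, such as that for pairs on no gene, *Lars2* and *Gm42418* were left out, and genes with a mean of at least 10 counts over the 16 *Tph2*+/+ samples were kept. Columns of all 48 samples were used, and 0 were left aside.

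Counts were scaled by TMM factors and fitted with edgeR (4.0.16, R 4.3.3) by quasi-likelihood over all 48 samples in 6 groups, with Benjamini-Hochberg adjustment over 5528 genes. The fit was tested on simulated data. Single genes and library measures were compared by two-sided exact permutation tests over 12870 splits, the former on log2(CPM + 1). Exons, opposite genes and GC content came from GENCODE M21 (GRCm38), which held 48058 of the 48440 genes. Promoters came from RefSeq. GC correction used a lowess curve (span 0.3) per library. Alternatives used DESeq2 (1.42.0) and limma (3.58.1), other filters, left-out libraries and covariates. The 12 higher and 12 lower DEGs with the smallest p and every DEG of a list were named, and further genes were named after their values had been seen. Members and lists were chosen with earlier results of these data known. Totals of 419364 to 772598 counts per library limit precision for genes near 10 counts. The samples fell into groups by genotype and treatment labels, and the litter was not analysed here.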

Additional observations from a re-analysis of the deposited data

Results flagged for a closer look

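Of 76 groups of 8 values checked, 18 had 1 library far from the other 7. This was measured by its gap to the nearest value relative to the range. The rate of about 1 in 20 that goes with the limit is for independent values and is no standard here. The groups were of DEGs chosen from the same mice and of library measures that overlap. Most of the 18 came from 3 libraries. In replicate 1 of C, counts on genes reached 6296568 (group median 731341.5), 93.3% of them on *Lars2* and *Gm42418* (median 3.58%), with 4569582 counts on *Gm42418* (median 275), 75.8% of unique pairs on no gene (median 97.5%) and 419364 counts after both genes were dropped (median 651213). In the same library *mt-Rnr2* was at 51340 CPM, *Gm15564* at 19160 CPM and ENSMUSG00000089855 at 9454 CPM.

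Replicate 2 of MS had 1513488 counts on genes (median 747646), 52.6% of them on *Lars2* and *Gm42418* (median 3.88%), 565653 counts on *Gm42418* (median 225.5) and 95.1% of unique pairs on no gene (median 97.5%). It was also highest of the MS mice for *mt-Rnr2* (3449 CPM), *Gm15564* (1575 CPM) and ENSMUSG00000089855 (370.4 CPM). In replicate 8 of C *CT010467.1* had 87745 counts, or 137700 CPM (median 3054). *Gm14205*, opposite to *Slc32a1*, was at 396 CPM in replicate 8 of MS against a median of 217 CPM.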

How the results depend on the processing

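All DEGs together, 123 higher and 35 lower, became 520 without a filter on low counts, 69 when a mean of 50 counts was needed, 91 with the share of non-unique alignments and 92 with the GC slope as covariate, and 34 without replicates 7 and 8 of MS. Leaving out 1 replicate gave 77 to 194, lowest without replicate 8 and highest without replicate 3 of MS. The 123 higher DEGs became 380, 54, 60, 56 and 15 in the same order, 80 without controls with animal numbers above 270, 64 with GC correction and replicate block, and 52 to 159 with 1 replicate left out. The 35 lower DEGs became 140 without the filter, 15 at 50 counts, 19 without replicates 7 and 8 of MS, 58 after GC correction, 52 with GC correction and replicate block, and 25 to 45 with 1 replicate left out. GC correction gave 141 DEGs, 83 higher and 58 lower. Genes at an adjusted p below 0.05, 0 with all settings kept, were 152 without the filter, 1 after GC correction and 0 to 1 with 1 replicate left out. The 1 gene after GC correction was *CT010467.1*, which rested on replicate 8 of C. Without the filter 32233 genes were tested, most of them with a mean under 10 counts. For GE1, the 180 DEGs became 579 without the filter, 71 at 50 counts, 83 without controls with animal numbers above 270, 53 without replicates 7 and 8 of MS and 132 to 215 with 1 replicate left out, and the 0 genes after adjustment became 3 with DESeq2, 179 without the filter and 0 to 58 with 1 replicate left out. For GE2, the 30 DEGs became 334 without the filter, 8 at 50 counts, 19 without the 4 libraries rich in *Gm42418*, 46 with the GC slope and 24 to 36 with 1 replicate left out, and 14 genes passed adjustment without the filter. The cause of these shifts was not tested.

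Among the 30 named DEGs, for which single values were computed, signs turned in 4 genes that rested on 1 C library. *CT010467.1* was at 0.001 with DESeq2. ENSMUSG00000089855 was at 0.093 with DESeq2, 0.22 with limma voom, 0.098 without the 4 libraries rich in *Gm42418* and 1.661 without replicate 1 of C. *Gm15564* was at 0.655, 0.043, 0.278 and 0.673 in the same settings, and *mt-Rnr2* at 0.044 without replicate 1 of C. With 1 replicate left out the lowest values of these genes, without replicate 2 of MS, were -5.694 for ENSMUSG00000089855, -3.406 for *mt-Rnr2* and -2.597 for *Gm15564*. Of 30 named DEGs, 15 were no longer DEGs without replicates 7 and 8 of MS, and 13 did not pass by exact permutation of single genes. A fit with the replicate number as block gave 145 DEGs. Replicate numbers were not shown to pair the mice, as 0 of 8 same-numbered pairs correlated above 0.1 in their deviations and 0 samples correlated best with their own number. Without the 3 libraries of the other genotypes with over 15% of alignments not unique, the median lg2FC of the 123 higher DEGs moved from -0.33 to -0.45 in *Tph2*+/- and from 0.22 to 0.10 in *Tph2*-/- mice.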

Other observations

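The following DEGs were chosen after their values were seen, form no group that was tested, and did not pass adjustment over all genes. *Nefh*, which encodes the heavy neurofilament protein and has no opposite exon, was higher after MS with a lg2FC of 0.94 ± 0.31, with -0.53 in *Tph2*+/- and 0.46 in *Tph2*-/- mice. The neuron markers fixed as a list, with the neurofilament genes *Nefl* and *Nefm* among them, held 0 DEGs. *Basp1*, a gene of a growth cone protein, had a lg2FC of 0.96 ± 0.30 and *Nat8l*, whose product makes N-acetylaspartate, one of 0.57 ± 0.19. *Gng3*, a G protein gamma subunit gene opposite to *Bscl2*, had a lg2FC of 0.48 ± 0.14. Without replicates 7 and 8 of MS, lg2FC were 0.47 for *Nefh*, 0.50 for *Basp1*, 0.53 for *Nat8l* and 0.40 for *Gng3*, and none of these was then a DEG. Among lower DEGs, *Inhba*, which encodes a subunit of activin A, had a lg2FC of -0.38 ± 0.12 and *F2rl2*, a gene of a protease-activated receptor, one of -0.62 ± 0.20. Both remained DEGs without these libraries, at -0.42 and -0.64.

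Among the higher DEGs were also the genes *Yy1*, with a lg2FC of 1.06 ± 0.37, *Zbtb11*, opposite to *Zbtb11os1*, with 0.95 ± 0.30, *Elf1*, opposite to *Wbp4*, with 0.82 ± 0.30, and *Gabpb1*, opposite over 14 bases to *Gm27003*, with 0.45 ± 0.16. Each encodes a protein of transcriptional regulation, a property noticed after their values were seen. In *Tph2*+/- mice they were at -0.51, -0.43, -0.42 and -0.41, and in *Tph2*-/- mice at 0.54, 0.26, 0.25 and -0.03. Without replicates 7 and 8 of MS none of the 4 was a DEG, at 0.78, 0.55, 0.43 and 0.42.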
